A study of Mus musculus with 4 samples.

Results

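Heat shock proteins and chaperones were followed across macrophages sorted from mouse mammary glands, on 4 arrays. The set held every probe set that named exactly 1 gene and whose symbol began with Hspa, Hspb, Hspd, Hspe, Hsph, Dnaja, Dnajb, Dnajc or Cct2 to Cct8. It comprised 140 of 22690 probe sets, which stood for 67 of 12393 genes. These were 11 Hspa genes, 6 Hspb genes, the Hsp70-binding factor Hspbp1, the trio Hspd1, Hspe1 and Hsph1, 4 Dnaja, 12 Dnajb and 22 Dnajc genes, and 8 Cct genes. The Hsp90 genes fall outside the pattern and were treated as a neighbouring list.

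Each group had 1 array made from 1 RNA sample. The remodeling Ets2-expressing group came from wild-type females without a tumor. In the remodeling Ets2-deficient group both copies of Ets2, a transcription factor gene of the ETS family, were deleted in macrophages. The tumor Ets2-expressing group came from early-stage mammary tumors induced by PyMT, the polyoma middle T oncogene. Its title reads wild type, but its source label gives 1 copy of Ets2. The tumor Ets2-deficient group came from such tumors with both copies deleted, so that copy number of the controls differs between settings and cannot be told apart from the setting. In all groups the macrophages carried YFP and were collected by flow sorting. The driver of the deletion, the age of the mice and the number of mice per sample are not given in the sources used here. The tumor and remodeling Ets2 comparisons subtract the control array from the Ets2-deficient one. The setting comparison of controls subtracts remodeling from tumor on the arrays that express Ets2, and the setting comparison without Ets2 does so on the deficient arrays. Where 4 log2 values follow each other, remodeling comes before tumor, and within each setting the control comes before the deficient array.

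Molecular chaperones help proteins reach and keep their folded shape. Hsp70 proteins (Hspa) bind exposed stretches of a client in a cycle driven by ATP. J-domain proteins (Dnaja, Dnajb, Dnajc) bring clients and trigger ATP hydrolysis, and exchange factors such as the Hsp110 protein Hsph1 release the nucleotide. Small heat shock proteins (Hspb) hold unfolding proteins without ATP, Hspd1 and Hspe1 form the folding chamber of mitochondria, and the Cct proteins form the cytosolic chamber that folds actin and tubulin. Heat and other protein-damaging stress switch on part of the set through heat shock factors, and an overloaded endoplasmic reticulum switches on another part through the unfolded protein response.

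With 1 array per group there is no replicate check, and no test was run. A gene was read from the probe set with its highest mean over the 4 arrays. A gene was bright in a comparison if the higher of its 2 values reached that array's median (6.17, 5.98, 6.22 and 6.30). It was past the limit if the difference was at least 2-fold (1 log2). The only error at hand came from genes with several bright probe sets. Their standard deviation within a gene had a median of 0.201 and 0.14 in the tumor and remodeling Ets2 comparisons. In the setting comparisons it was 0.223 for controls and 0.163 without Ets2. It covers neither mice, sorts nor amplification. All 12 macrophage markers of the fixed list, among them Csf1r and C1qa, lay above the median on every array, with list medians of 12.29, 12.01, 12.04 and 12.10. For the Actb control probe sets, the 3' signal exceeded the 5' signal, which tracks RNA integrity and amplification length, by 2.72, 2.96, 3.30 and 3.54.

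Most of the chaperone genes were measured well above the middle of the arrays. Of the 67 genes, 50 lay at or above the median on all 4 arrays, 3 on some of them and 14 on none. The 14 included the testis-linked genes Dnajb3, Dnajb7, Dnajb8 and Hspa1l, and the muscle-linked genes Hspb2, Hspb3 and Hspb7. Among the 50, the 4 values of 21 genes spanned less than 0.5 log2 and those of 8 genes spanned at least 1 log2. The remodeling Ets2-expressing array held the highest of the 4 values for 19 of these 50 genes, 38.0% against 22.7% of all genes above the median on all 4 arrays. The remodeling Ets2-deficient array held it for 4 of them, 8.0% against 21.3%. The tumor Ets2-expressing array held it for 11 (22% against 25.3%), and the tumor Ets2-deficient array for 16 (32.0% against 30.7%). The lowest value lay on the remodeling Ets2-expressing array for 14 genes (28.0% against 34.5%) and on the remodeling Ets2-deficient array for 12 (24.0% against 19.2%). It lay on the tumor Ets2-expressing array for 13 (26.0% against 22.7%) and on the tumor Ets2-deficient array for 11 (22% against 23.6%).

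**Figure D1:**
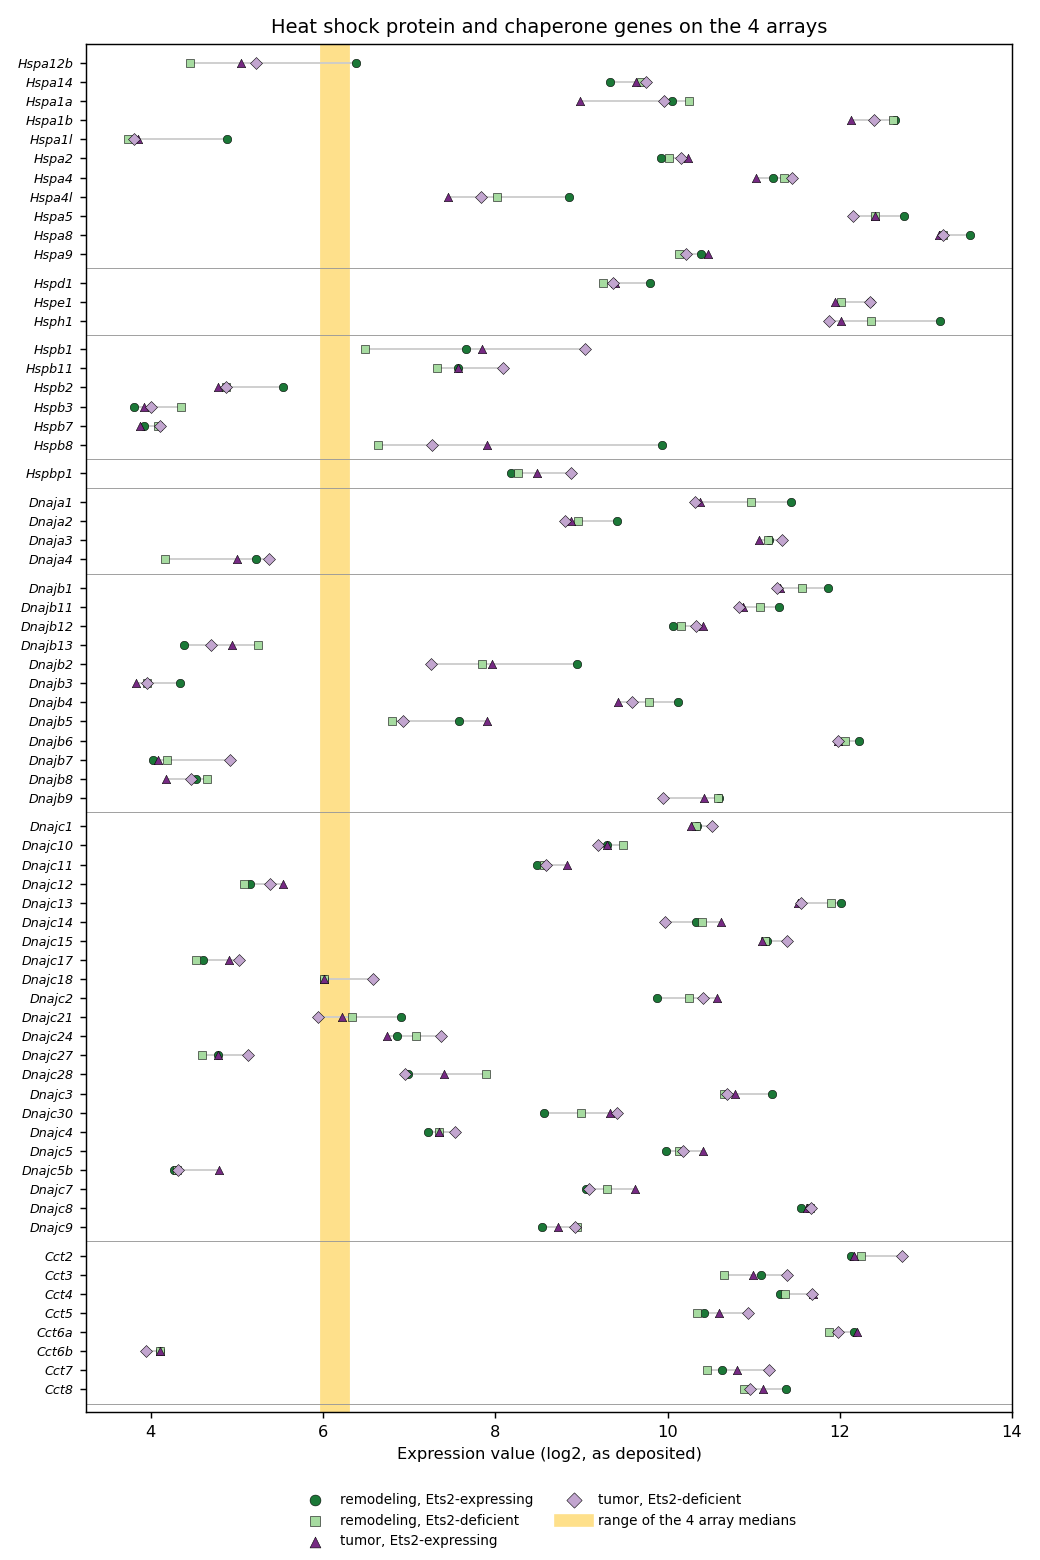
Log2 expression (x axis) of each of the 67 genes (y axis, grouped by family) on the 4 arrays; each symbol is 1 array, grey lines join the lowest and highest value, and the yellow band spans the 4 array medians (5.98 to 6.30). The 50 genes right of the band on all arrays mostly vary little, while Hspb8 and Hspb1 spread widely.

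Across the whole set, the differences between arrays were small. The median difference of bright chaperone genes was -0.001 log2 in the tumor Ets2 comparison (52 genes) and -0.08 in the remodeling Ets2 comparison (53 genes), beside 0.03 and 0.05 over all bright genes. In the setting comparisons it was -0.08 for controls and 0.06 without Ets2 (52 genes each), beside 0.09 and 0.06. Centring each array on its median turned the remodeling Ets2 median to 0.11, but that of all genes went to 0.24, so that the chaperone genes stayed 0.13 log2 below all genes either way. With the median over a gene's probe sets the chaperone median was -0.21 there, and -0.20 in the setting comparison of controls.

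Past the 2-fold limit were 1 of 52 bright chaperone genes in the tumor Ets2 comparison (1.92%, against 2.99% of all bright genes) and 4 of 53 in the remodeling Ets2 comparison (7.55% against 6.48%). In the setting comparisons there were 6 of 52 for controls and 1 of 52 without Ets2 (1.92% against 9.22%). The share for controls, 11.5%, stood against 11.4% of all bright genes. All 4 shares lay near or below the background. The 1 gene of the tumor Ets2 comparison, Hspb1, was higher (2.23% of all bright genes were higher and 0.761% lower), as it was in the setting comparison without Ets2 (7.61% higher and 1.61% lower). In the setting comparison of controls all 6 were lower in the tumor, where 5.2% of all bright genes were lower and 6.18% higher. In the remodeling Ets2 comparison all 4 were lower on the Ets2-deficient array, where 5.17% of all bright genes were lower and 1.31% higher. The 2 comparisons share the remodeling Ets2-expressing array, so their directions are not independent. Hspa12b, counted in both, was bright through that array alone, so its direction follows from the filter.

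**Figure D2:**
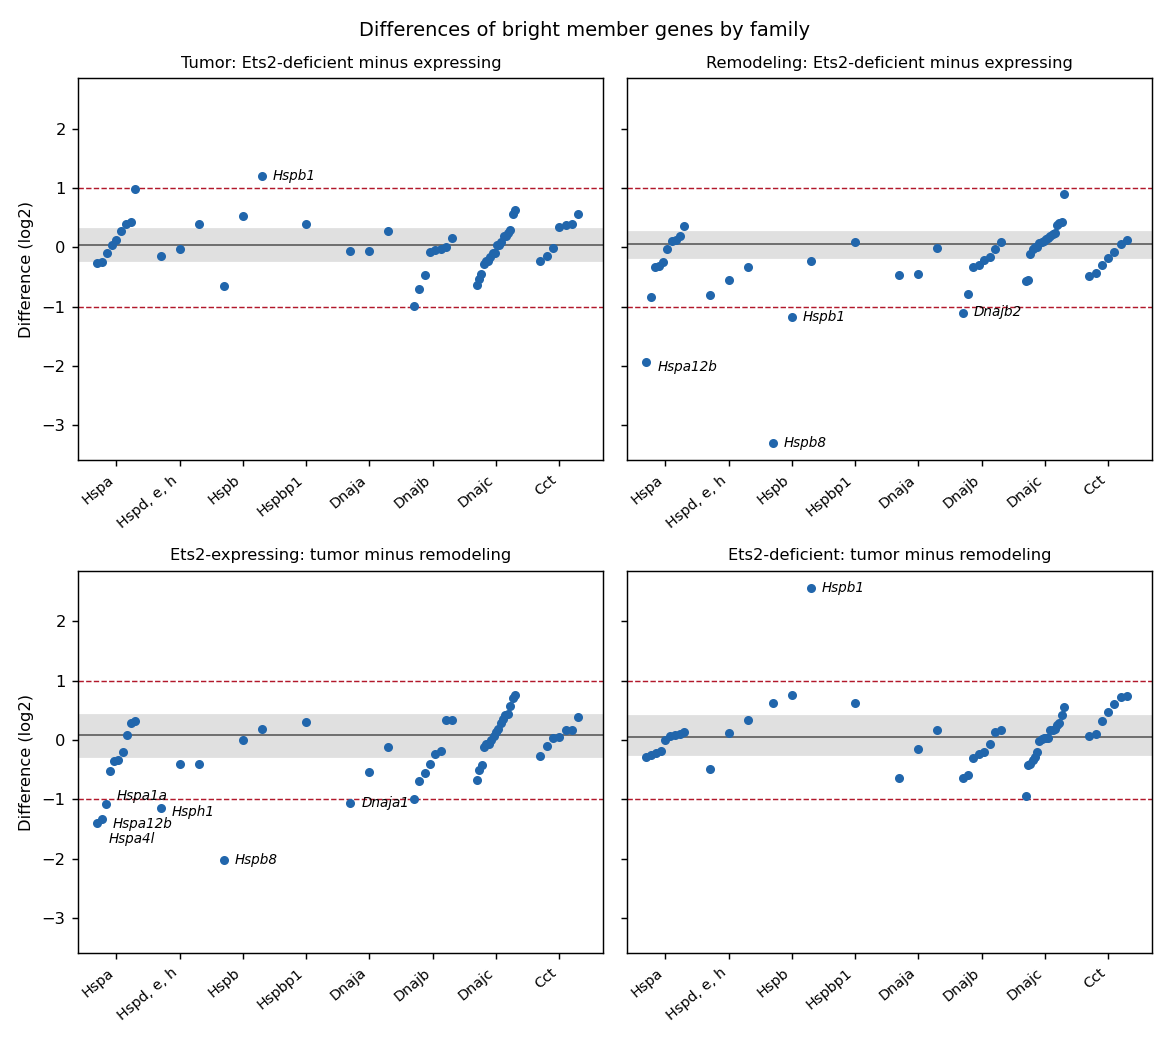
Log2 differences (y axis) of bright chaperone genes by family (x axis) in the 4 comparisons; each point is 1 gene, the grey line and band are the median and quartiles of all bright genes, dashed red lines mark 2-fold, and genes past them are named. Points below the lower line are Hspb8, Hspa12b, Hspb1 and Dnajb2 at upper right and 6 genes at lower left.

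The stress-inducible Hsp70 pair, Hspa1a and Hspa1b, was lowest on the tumor Ets2-expressing array. Hspa1a had values of 10.05, 10.25, 8.98 and 9.96. Its tumor minus remodeling difference on the Ets2-expressing arrays was -1.07, past 2-fold, and its tumor Ets2 difference of 0.98 lay just short of the limit. The 3 other arrays lay within 0.29 log2 of each other and the tumor Ets2-expressing array stood below them. Hspa1b has 3 probe sets that disagree in size. The one used gave 12.65, 12.62, 12.12 and 12.40, with a tumor Ets2 difference of only 0.28. A second gave 9.40, 9.29, 6.90 and 8.67, and the third 9.99, 9.74, 8.02 and 9.37. These had tumor Ets2 differences of 1.77 and 1.35, and tumor minus remodeling differences of -2.50 and -1.96 on the Ets2-expressing arrays. All 3, like the Hspa1a probe set, had their lowest value on the tumor Ets2-expressing array, by unequal amounts. Hspa1a and Hspa1b are near-identical copies, so the signals of the pair cannot be assigned to 1 of them.

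Hsph1, the Hsp110 partner of Hsp70, was highest on the remodeling Ets2-expressing array and lower on the 3 others. Its values were 13.17, 12.36, 12.01 and 11.87. The difference was -1.15 in the setting comparison of controls and -0.81 in the remodeling Ets2 comparison. Its other probe set showed larger differences in the same places, with 9.27, 7.28, 6.86 and 6.84, or -2.42 and -1.99. In the tumor Ets2 comparison both probe sets were level (-0.14 and -0.02). Hspa4l, another Hsp110 family member, was also highest on the remodeling Ets2-expressing array: 8.85, 8.02, 7.45 and 7.83, with -1.41 in the setting comparison of controls and -0.83 in the remodeling Ets2 comparison. Its second probe set gave -0.60 and -1.06. The third Hsp110-type gene, Hspa4, had 11.23, 11.35, 11.02 and 11.45 on the probe set used, with a difference of -0.20 in the setting comparison of controls. Another gave 9.20, 9.21, 8.35 and 9.01, with -0.85.

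Several J-domain partners of cytosolic Hsp70 were highest on the same array. Dnaja1, which helps Hsp70 in the cytosol, had values of 11.43, 10.96, 10.37 and 10.32 with a difference of -1.06 in the setting comparison of controls (2.09-fold lower in tumor). Its second probe set gave -0.79, short of the limit. Dnajb1, the Hsp40 protein induced by heat together with Hsp70, had 11.87, 11.57, 11.30 and 11.27, and its difference there was -0.56. For Dnajb4 the values were 10.12, 9.79, 9.43 and 9.59, and for Dnaja2 9.41, 8.96, 8.87 and 8.81. The remodeling Ets2-expressing array was highest in each of these 4 genes. A second probe set of Dnaja2 gave 8.90, 8.15, 8.19 and 8.30, also highest there but lowest on the remodeling Ets2-deficient array. Constitutive Hspa8, the everyday cytosolic Hsp70, was flatter: 13.51, 13.20, 13.16 and 13.20.

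Together, 8 of 9 bright genes among the stress-inducible cytosolic chaperones (Hspa1a, Hspa1b, Hspa4l, Hsph1, Dnaja1, Dnajb1, Dnajb4, Hspb1, Hspb8) lay below 0 in the setting comparison of controls, 5 of them past 2-fold. Over all bright genes, 42.9% lay below 0 there and 5.2% were lower past 2-fold. The group's median was -1.06, and between -1.14 and -1.02 under the other scalings. In the remodeling Ets2 comparison 8 of 9 lay below 0 as well (median -0.47, and -0.27 after centring on array medians). Fibroblast markers had medians of -1.23 and -2.20 over all 13 measured genes in these comparisons, which share an array. Mast cell markers had -1.35 and -2.65 over 5 bright genes, and -1.05 and -1.08 over all 9 measured ones. The part of both cell types was not tested. This grouping was made after the values were seen, so its counts are no test against all genes. It counts Hspa1a and Hspa1b as 2 genes, although their signals cannot be told apart. The tenth gene of the group, Hspa1l, was not bright. Of 18 immediate early genes that respond to cell dissociation, all bright, none passed 2-fold in any comparison. Their medians were 0.13 in the setting comparison of controls and 0.09 in the remodeling Ets2 comparison. They were -0.21 in the tumor Ets2 comparison and -0.25 in the setting comparison without Ets2, beside 0.03 and 0.06 over all bright genes. The Actb 3' minus 5' difference was smallest on the remodeling Ets2-expressing array (2.72) and largest on the tumor Ets2-deficient one (3.54). Hsph1, Dnaja1 and Dnajb1 were highest on the first of these arrays and lowest on the second. The other bright genes of the group were not: Hspa1a, Hspa1b, Hspa4l and Dnajb4 were lowest on the tumor Ets2-expressing array. Hspb1 and Hspb8 were lowest on the remodeling Ets2-deficient array. The 3' minus 5' difference for Gapdh was 1.61, 1.80, 2.45 and 2.27, largest on the tumor Ets2-expressing array. The part of either measure in these differences was not tested.

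**Figure D3:**
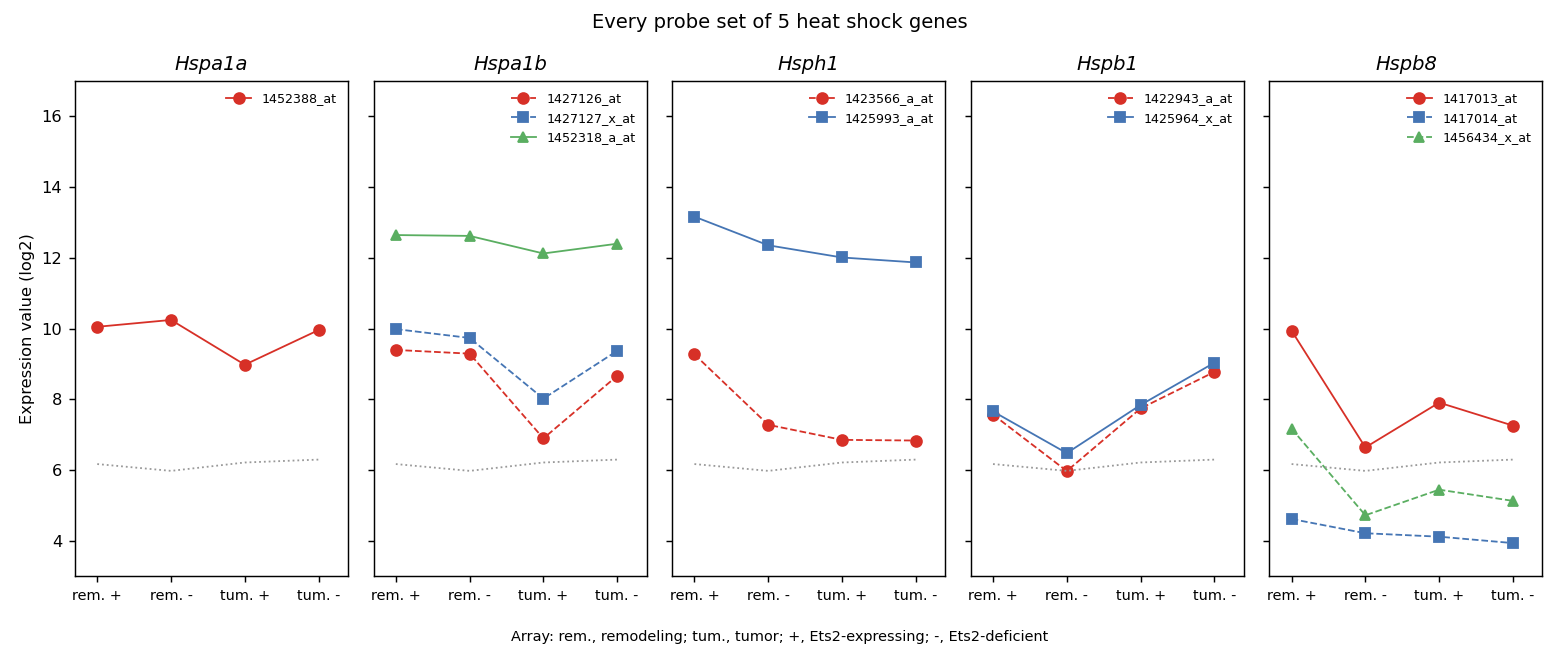
Log2 expression (y axis) of every probe set of Hspa1a, Hspa1b, Hsph1, Hspb1 and Hspb8 on the 4 arrays (x axis); solid lines join the probe set used for the gene, dashed lines the others, and the dotted grey line gives the array medians. The Hspa1b probe sets all dip on the tumor Ets2-expressing array but by unequal amounts (12.12, 6.90 and 8.02 there).

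Heat shock factors bind inverted repeats of the unit GAA, and the starts of these genes were searched for them. The search was prompted by the inducible group above, which was formed after the values were seen. The search covered 250 bases before to 50 after each gene's start (RefSeq, GRCm38.p6), and 56 of the 67 genes had a sequence. On both strands, 3 units in a row (GAANNTTCNNGAA) occurred in 4 of these 56 genes, or 7.14%, against 0.662% of 27025 genes and 0.603% of all 32851 windows. The shorter GAANNTTC, which is contained in the longer motif, occurred in 13 of 56 genes (23.2%), against 9.04% of all genes and 7.86% of windows. The 4 genes with 3 units were Hspd1, Hspe1, Hsph1 and Dnajb6. Hspd1 and Hspe1 lie head to head and share the match. Capitals mark the matched letters in the stretches shown, which are those of genes whose values turn the results or that hold 3 units:
Hspe1 and Hspd1, chr1:55088019-55088116, plus strand: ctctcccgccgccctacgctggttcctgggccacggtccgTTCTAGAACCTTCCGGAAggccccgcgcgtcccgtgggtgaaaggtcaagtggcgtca
Dnajb6, chr5:29735812-29735894, plus strand: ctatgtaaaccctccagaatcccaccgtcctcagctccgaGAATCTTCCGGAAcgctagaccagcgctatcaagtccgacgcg
Hsph1, chr5:149636279-149636308, minus strand: gctgcagaTTCTGGAAAGTTCtcctcagta
Hspa1b, chr17:34959295-34959382, minus strand: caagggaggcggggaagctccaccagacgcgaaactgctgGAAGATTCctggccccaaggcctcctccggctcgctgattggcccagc
Hspb1, chr5:135887762-135887869, plus strand: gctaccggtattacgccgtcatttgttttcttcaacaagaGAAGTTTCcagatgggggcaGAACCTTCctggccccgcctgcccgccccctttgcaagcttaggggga
Hspb8, chr5:116422843-116422872, minus strand: gaagccaggaGAAGTTTCtaggctcgcgag
In the Hspe1 stretch 2 matches overlap on opposite strands. The Hsph1 and Hspb8 matches lie just after the start, and the others before it. Hspa1a has the GAANNTTC match at the same place as Hspa1b, position -104 from the start. Of the 13 genes with GAANNTTC, 10 lay above the median on all 4 arrays, and 7 of these had their highest value on the remodeling Ets2-expressing array (Dnaja1, Dnajb6, Hspa1b, Hspb8, Hspd1, Hspe1 and Hsph1). That array held the highest value for 38.0% of all chaperone genes above the median. Among the 7, Hspe1 had 12.35 there and 12.35 on the tumor Ets2-deficient array. Hspa1b had 12.65 there and 12.62 on the remodeling Ets2-deficient array. Both leads were below the median probe-set spread. Hspd1 and Hspe1 also share 1 match, so the 7 are not independent. The probe set used for Dnajb6 gave 12.22, 12.06, 11.98 and 11.98, and another gave 10.03, 9.24, 9.48 and 8.86, with larger differences.

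Hspb1, the small heat shock protein Hsp27 that guards actin filaments, was the 1 gene past 2-fold in opposite directions in the 2 settings. Its values were 7.66, 6.48, 7.84 and 9.04. It was higher on the tumor Ets2-deficient than on the tumor Ets2-expressing array by 1.19 log2 (2.29-fold) and lower on the remodeling Ets2-deficient than on the remodeling Ets2-expressing array, with a difference of -1.18. Consequently it differed by 2.56 log2 between the Ets2-deficient arrays (5.88-fold higher in tumor), and by 0.18 between the Ets2-expressing arrays. Its second probe set had the same directions, with 7.57, 5.98, 7.74 and 8.78, or 1.03 and -1.60 in the Ets2 comparisons. After centring on array medians the remodeling difference was -0.99, just short of the limit.

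Markers of other cell types differed in the same directions. In the tumor Ets2 comparison 13 of 14 bright epithelial genes lay above 0, with a median of 0.82. All 3 epithelial genes bright in the remodeling Ets2 comparison (Krt18, Krt19 and Csn3) were lower past 2-fold, but Krt19 was bright on the control array alone. Over all 15 measured epithelial genes, 10 lay below and 5 above 0 there (median -0.42). In the setting comparison without Ets2 14 of 14 were higher past 2-fold (median 4.24). Between the Ets2-expressing arrays, however, 12 of 13 were higher past 2-fold (median 2.63), where Hspb1 differed by 0.18. Of these bright genes, only Krt18 and Csn3, and Krt19 between the Ets2-expressing arrays, also reached the median on the remodeling array. The others were bright through the tumor array alone, so their direction follows from the filter. Over all 15 measured epithelial genes, 15 lay above 0 in each setting comparison (medians 4.08 without Ets2 and 2.54 for controls). The 15 list genes had medians of 5.30, 4.58, 7.67 and 8.83 and ranged from 4.00 to 7.91, 3.67 to 6.50, 4.40 to 12.42 and 4.75 to 12.96. On each remodeling array 3 of the 15 lay below the 25th percentile. Neutrophil markers had medians over 8 genes of 7.04, 6.29, 7.46 and 8.47, with ranges of 4.47 to 12.82, 4.52 to 12.28, 4.44 to 11.51 and 4.92 to 12.98. Of these, 5 of 5 bright genes lay above 0 in the tumor Ets2 comparison (median 1.07) and 4 of 4 below 0 in the remodeling one (median -0.87). Over all 8 measured neutrophil genes, 6 lay below and 2 above 0 in the remodeling Ets2 comparison (median -0.75). Of the 5 bright ones in the setting comparison of controls, where Hspb1 differed by 0.18, 4 were lower past 2-fold and 1 higher (median -1.23). The higher one was Ltf, with 5.87 on the remodeling and 9.53 on the tumor array. Fibroblast markers also differed where Hspb1 did in remodeling (13 of 13 lower past 2-fold). The part of these cell types in the Hspb1 values was not tested, and in sorted bulk samples fewer cells of a type and less RNA per cell cannot be told apart.

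Hspb8, a small heat shock protein that works with Bag3 in the disposal of misfolded proteins, had the widest span of the set. Its values were 9.94, 6.64, 7.91 and 7.26. The remodeling Ets2-expressing array stood above the 3 others by at least 2 log2. The remodeling Ets2 difference was -3.30 (9.84-fold lower on the Ets2-deficient array), and the setting comparisons gave -2.03 for controls and 0.62 without Ets2. A second probe set gave 7.17, 4.72, 5.45 and 5.13, and the third was dim on every array (3.94 to 4.62). Its partner Bag3 had 8.82, 8.34, 8.34 and 8.34, a far smaller difference of -0.47 in both comparisons that share the remodeling Ets2-expressing array. The 13 measured fibroblast genes had the same order of remodeling arrays, with list medians of 10.52, 8.19, 9.17 and 9.39 and ranges of 6.63 to 12.32, 4.34 to 11.16, 5.87 to 11.77 and 6.10 to 11.76. All 13 were lower past 2-fold in the remodeling Ets2 comparison (median -2.20), and 8 of 13 in the setting comparison of controls (median -1.23). Between the tumor arrays the fibroblast median was 0.10 and Hspb8 differed by -0.65. Mast cell markers were lower too, with 5 of 5 bright genes past 2-fold in each of these 2 comparisons that share an array. Mcpt4 in the remodeling Ets2 comparison and Tpsb2 in both were bright through the remodeling Ets2-expressing array alone, so their direction follows from the filter. Over all 9 measured mast cell genes, 9 lay below 0 in the remodeling Ets2 comparison (median -1.08). In the setting comparison of controls 7 lay below and 2 above 0 (median -1.05). The part of these cells in the Hspb8 values was not tested.

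Hspa12b, a distant Hsp70 relative known from endothelial cells, was above the array median on the remodeling Ets2-expressing array alone. Its values were 6.39, 4.46, 5.05 and 5.23, with -1.93 in the remodeling Ets2 comparison and -1.34 in the setting comparison of controls. Its direction in both comparisons follows from the filter. The dim values lie little above the 25th percentiles (4.27 to 4.32), so the sizes are not exact. Of 8 endothelial markers, 7 lay below 0 in the remodeling Ets2 comparison (median over all 8, -0.43). Only 3 were bright there: Tek (8.17, 5.41, 6.69 and 6.58), Ramp2 (6.87, 4.59, 5.69 and 5.38) and Flt1 (8.54, 7.74, 7.27 and 7.60). Tek and Ramp2 were bright through the remodeling Ets2-expressing array alone, so their direction follows from the filter. The defining markers Pecam1, Cdh5 and Kdr lay below the median on every array, and the list medians were 5.25, 5.08, 5.26 and 5.31, from 4.48 to 8.54, 4.09 to 7.74, 4.54 to 7.27 and 4.39 to 7.60. Whether endothelial cells contributed was not tested.

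**Figure D4:**
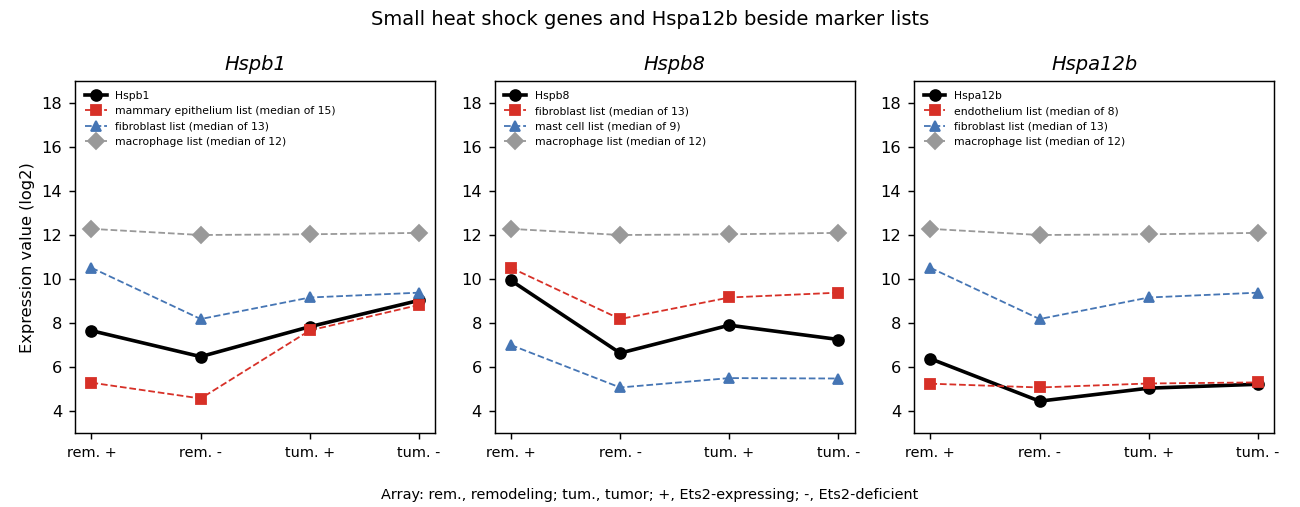
Log2 expression (y axis) of Hspb1, Hspb8 and Hspa12b (black) on the 4 arrays (x axis) beside the medians of marker lists (dashed). Hspb8 and the fibroblast list are both highest on the remodeling Ets2-expressing array (9.94 and 10.52), while the macrophage list stays between 12.01 and 12.29.

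The remaining small heat shock and J-domain genes past or near the limit were few. Dnajb2, a J-domain protein that passes clients to the proteasome, had values of 8.95, 7.85, 7.96 and 7.25, and its remodeling Ets2 difference of -1.11 passed 2-fold. In the setting comparison of controls it lay just outside at -0.997, next to Dnaja1 just inside. Dnajb5 had 7.58, 6.80, 7.91 and 6.92: both Ets2-deficient arrays were lower, by 0.98 and 0.78 log2. Its difference in tumor passed 2-fold after centring on array medians and after quantile normalization. Its 2 other probe sets were dim on every array. Dnajc28 was highest on the remodeling Ets2-deficient array (6.99, 7.89, 7.40 and 6.95), by 0.90 log2 over the remodeling Ets2-expressing one. Hspb11, which despite its name is a subunit of the intraflagellar transport complex, had 7.56, 7.32, 7.56 and 8.09.

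The chaperones of the endoplasmic reticulum differed little. Hspa5, the reticulum's Hsp70 known as BiP, had 12.74, 12.41, 12.41 and 12.15, with differences of -0.25 and -0.33 in the tumor and remodeling Ets2 comparisons. Dnajb9, its J-domain partner induced by the unfolded protein response, had 10.60, 10.58, 10.42 and 9.95, the lowest on the tumor Ets2-deficient array (-0.47). Dnajc3, which shields the reticulum during stress, had 11.21, 10.66, 10.78 and 10.69 and was lower by 0.55 in the remodeling Ets2 comparison. Its 4 other probe sets gave -0.44 to -0.59 there. They disagreed in size in the setting comparison of controls: the one used gave -0.43, and the others -0.75, -0.87, -1.06 and -1.35, so that 2 of them passed 2-fold. Of the 6 reticulum genes (with Dnajb11, Dnajc1 and Dnajc10) none passed 2-fold in any comparison on the probe set used. In both Ets2 comparisons 5 of 6 lay below 0, beside 45.7% of all bright genes in tumor and 42.9% in remodeling. Among those below 0, Dnajb11, Dnajc3 and Dnajc10 in tumor lay within the median probe-set spread. So did Dnajb9 and Dnajc1 in remodeling. The median of the 6 was -0.10 in the tumor and -0.12 in the remodeling Ets2 comparison, the latter turning to 0.07 after centring on array medians.

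Among 28 genes of folding and unfolded protein response in the reticulum, fixed as a list with Hsp90b1, Calr and Xbp1, 21 were bright in each comparison. In the tumor Ets2 comparison 1 was higher past 2-fold, Asns (7.71, 7.03, 7.78 and 9.42), the asparagine synthetase induced by Atf4. None was lower, and the median was -0.03 against 0.03 over all genes. In the remodeling Ets2 comparison none passed 2-fold (median -0.22 against 0.05). Ddit3, a stress-induced transcription factor, had 7.25, 7.53, 6.96 and 5.98, and was lower past 2-fold on the tumor than on the remodeling Ets2-deficient array (-1.55). Hsp90b1, the reticulum's Hsp90, stayed within 0.49 log2 (11.73, 11.51, 11.24 and 11.44). The element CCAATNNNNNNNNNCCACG, through which Atf6 acts, was found on either strand near the start of 2 of the 56 genes, against 0.137% of all genes and 0.119% of windows. They are shown because they are the 2 reticulum members that hold it, with the element in capitals:
Hspa5, chr2:34771995-34772073, plus strand: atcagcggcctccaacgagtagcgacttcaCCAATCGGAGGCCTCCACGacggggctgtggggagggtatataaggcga
Dnajc3, chr14:118937797-118937875, plus strand: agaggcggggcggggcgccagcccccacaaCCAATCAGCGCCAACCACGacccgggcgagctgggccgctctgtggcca
Both genes had their highest value on the remodeling Ets2-expressing array on the probe sets used.

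Mitochondrial chaperones were nearly level. Hspd1 and Hspe1, whose shared promoter is shown above, had 9.80, 9.25, 9.39 and 9.36, and 12.35, 12.02, 11.95 and 12.35. Both were lower on the remodeling Ets2-deficient than on the remodeling Ets2-expressing array (-0.55 and -0.34). On the tumor Ets2-deficient array Hspe1 matched its value on the remodeling Ets2-expressing array, and Hspd1 lay below it. Hspa9, the mitochondrial Hsp70, had 10.39, 10.13, 10.47 and 10.21. Dnaja3 had 11.18, 11.17, 11.06 and 11.33. Dnajc30 was the 1 of 7 mitochondrial genes that differed by over 0.5 log2 between the settings on the Ets2-expressing arrays (8.57, 9.0, 9.33 and 9.42). None of the 7 passed 2-fold. Among 12 other mitochondrial quality control genes, the protease gene Htra2 and the nucleotide exchange factor Grpel1 among them, none passed 2-fold either.

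The cytosolic chaperonin genes were highest, in 4 of 7 bright cases, on the tumor Ets2-deficient array. Of all genes above the median on all 4 arrays, 30.7% were highest there. Cct2 had 12.13, 12.25, 12.16 and 12.72, and its 3 probe sets gave tumor Ets2 differences of 0.55 to 0.59. Cct3 had 11.09, 10.65, 10.99 and 11.39, Cct5 10.42, 10.34, 10.59 and 10.94, and Cct7 10.63, 10.45, 10.80 and 11.18. Cct4 (11.31, 11.36, 11.69 and 11.68) was higher on both tumor arrays. Cct6a had 12.16, 11.87, 12.21 and 11.98. Cct8 had 11.37, 10.89, 11.10 and 10.95, and its tumor Ets2 difference of -0.15 was below the median probe-set spread. Several subunits had probe sets that disagreed. Cct6a gave, in the tumor Ets2 comparison, -0.23 on the one used and 0.02 on the other, and Cct3 gave 0.40 on the one used and -0.14 to 0.19 on its 3 other bright ones. None of the 7 passed 2-fold on the probe set used, and Cct6b was dim on all arrays.

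The chaperonin median was 0.35 in the tumor Ets2 comparison, against 0.03 over all genes, and lay between 0.26 and 0.40 under the other scalings. On the Ets2-deficient arrays all 7 lay above 0 in tumor minus remodeling, beside 53.7% of all bright genes. Their median was 0.47, and 0.15 after centring on array medians, where all genes had -0.26. Tcp1, the subunit outside the pattern, had 11.43, 11.42, 11.48 and 11.81, and none of the 9 measured genes in the list of chaperonin and prefoldin genes passed 2-fold. Cell proliferation markers had a median of 0.52 in the tumor Ets2 comparison (8 of 8 bright genes above 0) and 0.07 in the setting comparison without Ets2. In the remodeling Ets2 comparison their median was 0.96 (9 of 9 above 0), where the chaperonin median was -0.18. After centring on array medians these were 1.15 and 0.01, so the sign of the chaperonin median there depends on the scaling. Bub1 in both Ets2 comparisons, and Kif11 in the remodeling one, were bright through the Ets2-deficient array alone, so their direction follows from the filter. Over all 11 measured proliferation genes, 10 lay above and 1 below 0 in the tumor Ets2 comparison (median 0.544). In the remodeling Ets2 comparison 11 lay above 0 (median 0.775). The part of proliferation in the chaperonin values was not tested.

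J-domain genes of the Dnajc class have varied jobs, and their medians stayed close to 0. Of 22, 18 were bright in the Ets2 comparisons and none passed 2-fold in any of the 4 comparisons on the probe set used. Dnajc2, which sits on the ribosome, had 9.88, 10.25, 10.58 and 10.41, with 0.70 in the setting comparison of controls. Another bright probe set of Dnajc2 gave 6.63, 6.93, 7.84 and 7.24, with 1.20 there, past 2-fold. A further bright one gave 0.64, short of the limit. Dnajc7, a co-chaperone shared by Hsp70 and Hsp90, had 9.05, 9.30, 9.62 and 9.09. Dnajc13, an endosomal protein, was lower in tumor, with 12.01, 11.90, 11.51 and 11.55. Dnajc5, the cysteine string protein of secretory vesicles, had 5 probe sets whose differences in the setting comparison of controls ran from -1.24 to 0.47, so no direction can be given for it. Dnajc8, a splicing-associated protein, varied by 0.12 log2 at most (11.55, 11.66, 11.62 and 11.66). Dnajc24, needed to modify elongation factor 2, had the highest tumor Ets2 difference of the class at 0.62 (6.85, 7.08, 6.74 and 7.36), and Dnajc14 the lowest at -0.64 (10.33, 10.40, 10.62 and 9.98).

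Hsp90 and its partners, which receive clients from Hsp70, were mostly below 0 in the remodeling Ets2 comparison (11 of 18 genes, beside 42.9% of all bright genes). All 18 measured genes of this list were bright. In the remodeling Ets2 comparison 3 were lower past 2-fold and none higher: the glucocorticoid receptor partner Fkbp5 (10.77, 8.87, 8.22 and 7.59), the Hsp70-Hsp90 adaptor Stip1 (9.09, 7.61, 8.35 and 7.62) and the immunophilin Fkbp4 (7.84, 6.74, 6.99 and 7.06). Their differences were -1.90, -1.47 and -1.10. Over all bright genes 5.17% were lower past 2-fold there and 1.31% higher. The list's median was -0.22 against 0.05 over all genes, and -0.03 against 0.24 after centring on array medians. In the setting comparison of controls 1 was lower past 2-fold, again Fkbp5 (-2.56), and on the Ets2-deficient arrays Fkbp5 as well (-1.28). Hsp90aa1, the inducible Hsp90, varied by 0.50 log2 (11.88, 11.66, 11.65 and 11.38). In the tumor Ets2 comparison none of the 18 passed 2-fold.

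The list of heat shock factors and their targets had 8 bright genes, none of them a factor itself, since Hsf2 and Hsf4 were dim. Of the 8, 4 were lower past 2-fold in the remodeling Ets2 comparison, beside 5.17% of all bright genes (median -0.91, against 0.05 over all genes). The 4 others had values below 0, of which Hsbp1 (-0.14) and Mt1 (-0.18) were near the median probe-set spread. The 4 past the limit were Serpinh1, the collagen chaperone Hsp47 (8.59, 5.59, 6.62 and 7.41), the metallothionein Mt2 (12.05, 10.36, 11.65 and 11.54), the small heat shock protein gene Cryab (7.93, 6.31, 7.58 and 7.90) and Fkbp4. Fkbp4 is also counted in the Hsp90 list. Serpinh1 was bright there through the remodeling Ets2-expressing array alone, so its direction follows from the filter. It serves collagen-making cells, and the fibroblast list stood beside it with a median of -2.20. In the tumor Ets2 comparison none of these genes passed 2-fold (median 0.06). Between the Ets2-deficient arrays 3 were higher past 2-fold in the tumor: Serpinh1 (1.82, bright through the tumor array alone), Cryab (1.59) and Mt2 (1.18). The 10 genes of Hsp70 nucleotide exchange held none past 2-fold in any comparison.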

How the data were processed

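Expression was measured on 4 mouse arrays of 22690 probe sets. The deposited values are log2 expression values, and GCOS and RMA are named in the submitters' processing notes. Their roles, order and versions are not given in the sources used here. Per the labels' protocols, RNA of sorted YFP-positive macrophages was amplified before labelling. Values were used as deposited, and 0 columns were left out. The probe-to-gene table gave 20380 probe sets naming exactly 1 gene; 2 probe sets naming Dnajc19 with its pseudogene were left out. Each gene was read from its probe set with the highest mean. Differences were counted where the brighter array reached its median and called at 2-fold, with no test, since each group had 1 array. The procedure was tested on simulated data.

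Members and lists were chosen with earlier results of these data known. Named genes were a core group of chaperones, bright members past 2-fold, the 3 highest and 3 lowest bright members per comparison, the 2 with the highest mean per family, members whose probe sets differ by over 1 log2 in a comparison, and, from the pathway lists, up to 4 genes past 2-fold per list and comparison. Other members described, the role groups and the separate probe sets of Hspa1a, Hspa1b, Hsph1 and Hspb8 were chosen after their values were seen. Promoter sequences came from RefSeq (GRCm38.p6). Alternatives were 3 scalings, 2 brightness limits, the median over probe sets and a 1.5-fold limit. Python 3.11.15 with pandas 2.3.3 was used.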

Additional observations from a re-analysis of the deposited data

Results flagged for a closer look

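Hspb1 was past 2-fold in opposite directions in the 2 settings, higher with the Ets2-deficient label in tumor macrophages (1.19 log2) and lower in remodeling macrophages (-1.18). The difference of the 2 differences was 2.37 log2. It rests on 4 arrays of 1 sample each, and the difference was not tested.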

How the results depend on the processing

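No paired analysis was possible because each group has 1 array. Counts of chaperone genes past 2-fold changed as follows. In the tumor Ets2 comparison the count of 1 (Hspb1) became 2 after centring on array medians and after quantile normalization (Dnajb5 added, lower, so 1 higher and 1 lower), 2 after centring on hybridization controls (Hspa1a added), 2 by the median over probe sets (Hspa1b added) and 7 at a 1.5-fold limit. In the remodeling Ets2 comparison the count of 4 became 2 with the brightness limit at the 75th percentile and 8 at 1.5-fold. It was 3 after centring on array medians or hybridization controls, with Dnajc28 higher and Hspb8 and Hspa12b lower. In the setting comparison of controls the count of 6 became 11 at 1.5-fold, 9 of them lower, and stayed between 5 and 7 under the other 6 alternatives. In the setting comparison without Ets2 the 1 gene became 2 under each of the 3 scalings (Dnajc28 added, lower), 2 without a brightness filter and 11 at 1.5-fold. The median over chaperone genes moved from -0.08 to 0.11 and 0.12 in the remodeling Ets2 comparison after centring on array medians and on hybridization controls, and from 0.06 to -0.26 and -0.16 in the setting comparison without Ets2. By construction both centrings shift every gene alike. With the median over probe sets it moved to -0.21 in the remodeling Ets2 comparison and from -0.08 to -0.20 in the setting comparison of controls. No gene past 2-fold changed sign under any alternative tried. Signals near background and the single array per group limit the precision.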

Other observations

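The probe-set files hold values that are identical to 3 decimals on 3 or more of the 4 arrays. Among the chaperone genes this concerned Dnajc18 (6.02 on 3 arrays and 6.58 on the tumor Ets2-deficient array) and Cct6b (4.11 on 3 arrays and 3.94 on the tumor Ets2-deficient array). Over all probe sets 395 of 22690, or 1.74%, were of this kind. The 2 probe sets naming both Dnajc19 and its pseudogene gave 9.55, 9.79, 9.73 and 10.02 for the bright one and 3.88 to 4.09 for the dim one.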
